A study of Homo sapiens with 64 samples.

Results

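The subject here is how the response to indacaterol changed between 1 and 2 h of treatment in BEAS-2B, a line of human airway epithelium immortalised in culture. For each gene the difference between indacaterol and vehicle at 2 h was taken, and the difference between indacaterol and vehicle at 1 h was subtracted from it. This difference of differences is called the growth of the effect below. A positive growth means that the effect of the drug was higher at 2 h than at 1 h. It rests on 16 of the 64 arrays of the study, 4 replicates in each of 4 groups: 10 nM indacaterol for 2 h, vehicle for 2 h, 10 nM indacaterol for 1 h and vehicle for 1 h. The same quantity was taken from another 16 arrays, of cells given both drugs or GSK 256066 alone at those times, which share no array with the first. Every array holds RNA of this single line. The cells were grown to confluence in a serum-free keratinocyte medium with epidermal growth factor, pituitary extract and antibiotics, spent 24 h in the medium alone, and were then treated. GSK 256066 (GSK in the labels, 10 nM) inhibits phosphodiesterase 4, an enzyme family that breaks down cyclic AMP (cAMP).

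Indacaterol is a long-acting bronchodilator that binds the beta-2 adrenoceptor, which couples to the stimulatory G protein and switches on adenylyl cyclase. The cAMP that is made activates protein kinase A, which phosphorylates the transcription factor CREB at promoters that carry the cAMP response element. Many genes switched on in this way are immediate early genes, which need no new protein for their transcription and whose short-lived mRNAs fade soon after their peak. Other genes reach their peak later, because their transcripts are long, are stable or depend on proteins made in the first phase. The comparison asks which genes belong to the early phase and which to the later one.

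Expression was read as probe-set signal on Affymetrix 3' arrays, and each of 19775 genes was represented by its brightest probe set. Median signal per array lay between 113.8 and 123.7 on the 16 arrays and between 101.2 and 127.4 over all 64. The epithelial keratins KRT18 and KRT8 had signals of 7561 to 9351 and of 4376 to 6726 on the 16 arrays. EPCAM, a surface marker of most epithelia, lay between 46.02 and 248.4, and VIM, a mesenchymal intermediate filament that many cultured lines make, between 10400 and 12140. PTPRC, the pan-leukocyte marker, did not exceed 35.9. Replicate 3 stood apart in every group. Between 623 and 770 of its genes differed more than 2-fold from the other arrays of their group, against 68 to 295 on the other arrays of 1 and 2 h but one. Its signal for the basal keratin KRT14 and the alarmin S100A9 was far higher, and KRT14 ran between 15.1 and 290500 over the 16 arrays. That one, GSK at 2 h replicate 2, also stood apart, with 621 such genes and the lowest median signal of the series. Calls of growth are given with and without these arrays. Nothing in the labels says that replicates were separate cultures, so p-values measure the spread between these samples, which may be technical, and 4 arrays a group limit the precision. In bulk RNA, fewer cells with a transcript and less of it per cell cannot be told apart. All log2 values are differences of log2(signal + 16), and this added constant makes changes of dim genes look smaller. Tests are from 1 limma model of all 64 arrays with Benjamini-Hochberg adjustment over all genes, and a gene is called where its adjusted p is under 0.05.

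The growth of the effect passed the test for 3 genes of 19775, which is 0.0152% of those tested. CRISPLD2 and SLC7A2 (0.0101%) had a larger effect at 2 h than at 1 h, and CYP2E1 (0.00506%) had a smaller one. A total of 983 genes had an unadjusted p under 0.05, close to the share of 0.05 that would pass where no gene changed. The effects at single times were called far more often: 42 genes at 1 h, 37 higher and 5 lower with indacaterol (0.212% of genes tested), and 237 genes at 2 h, 195 higher and 42 lower (1.2%). Of the 37 genes higher at 1 h, 32 were also called higher at 2 h. A call at 2 h without one at 1 h does not show that the effects differ. That difference was tested only by the growth, so the larger count at 2 h is a count of calls.

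**Figure D1:**
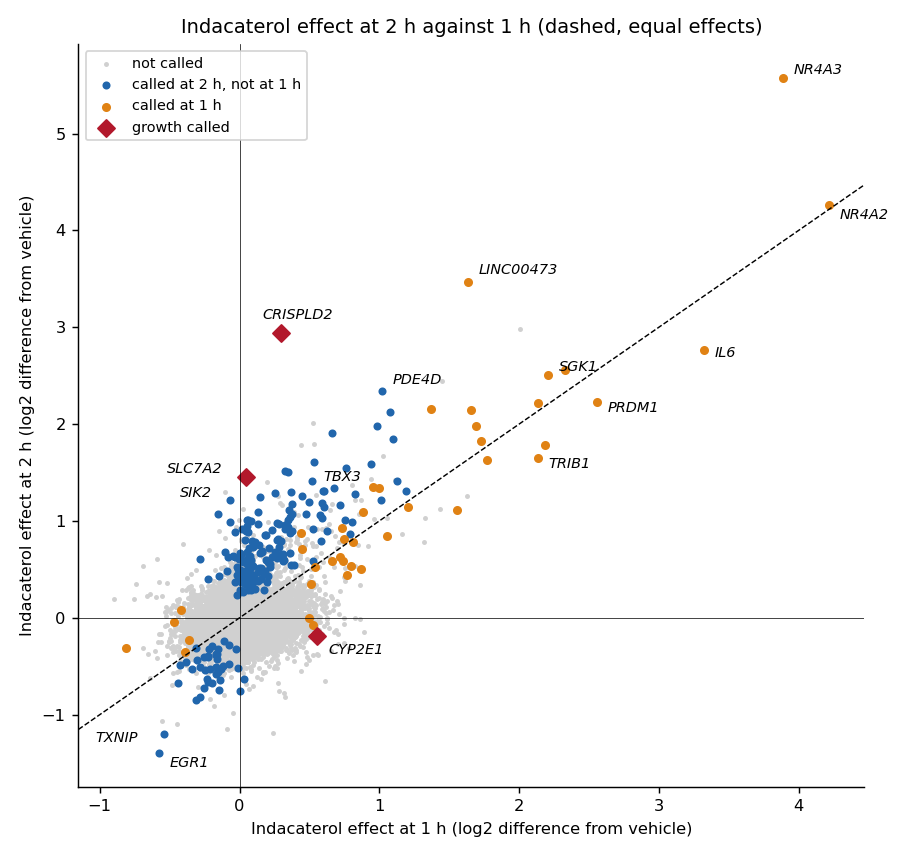
Indacaterol effect at 2 h (vertical axis) against that at 1 h (horizontal axis), both as log2 differences from vehicle, with 1 point per gene. Genes called at 1 h (orange) lie on both sides of the dashed line of equal effects. NR4A3, LINC00473 and ITPRIP are among those above it, and IL6, TRIB1 and ESRRG among those below it. Higher genes called at 2 h and not at 1 h (blue) lie mostly between 0 and 0.5 at 1 h. Red diamonds are the 3 genes whose growth was called.

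The later genes were led by CRISPLD2, which encodes a secreted protein that restrains inflammatory signalling in airway and other cells and is also induced by glucocorticoids. At 2 h its signal was 3118, 1910, 1902 and 1797 with indacaterol, against 342.4, 309.8, 233.5 and 194.3 with vehicle. At 1 h it was 472.7, 290.9, 155.5 and 282.4 with indacaterol, against 350.0, 197.0, 143.3 and 256.5 with vehicle. The 4 arrays of indacaterol at 2 h therefore stood above all the others, while drug and vehicle overlapped at 1 h. The effect was 2.94 log2 at 2 h and 0.30 log2 at 1 h, and the growth was 2.64 ± 0.52 log2 (SE, 95% interval 1.60 to 3.68, adjusted p = 0.0343 in limma). A dimmer probe set of the same gene had a growth of -0.13 log2 and an effect of -0.13 log2 at 2 h, so the response was read on the brighter one alone.

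SLC7A2, a transporter of arginine and other cationic amino acids, was also highest with indacaterol at 2 h. Its signal at 2 h was 2178, 1720, 1857 and 1814 with indacaterol, against 733.9, 642.2, 579.5 and 766.9 with vehicle. In the 1 h arrays it was 1101, 739.6, 598.8 and 797.2 with indacaterol, against 1019, 585.4, 676.6 and 837.4 with vehicle. Drug and vehicle overlapped at 1 h, where replicate 1 with indacaterol was the highest array, and all 4 drug arrays lay above vehicle at 2 h. The effect was 1.46 log2 at 2 h and 0.05 log2 at 1 h, with a growth of 1.41 ± 0.27 log2 (SE, adjusted p = 0.0343). A dimmer probe set had a growth of 0.90 log2, and the dimmest one had -0.34 log2. Leaving out replicate 3 of every group gave a growth of 2.57 log2 for CRISPLD2 and 1.27 log2 for SLC7A2, and adjusted p-values of 0.126 and 0.170. Without the arrays that stand apart the estimates moved little and the calls were lost. Over 20 refits that each left out an array or a replicate number, the growth stayed between 2.38 and 2.88 log2 for CRISPLD2 and was called in 6 of them. For SLC7A2 it stayed between 1.27 and 1.56 log2 and was called in 7. Both calls held without replicate 1 of every group, and without each of replicates 2 and 4 of indacaterol at 2 h, replicate 1 of indacaterol at 1 h and replicates 2 and 3 of vehicle at 1 h, and that of SLC7A2 also without vehicle 2 h replicate 4. Without replicate 2 of every group the adjusted p of CRISPLD2 was 0.522.

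The next 10 genes by unadjusted p did not pass the test, which was fitted without a replicate block. Values with that block, which no label grounds, are given with the dependence on processing. The first of the 10 genes is SIK2, a salt-inducible kinase that protein kinase A inhibits and that holds the CREB coactivators out of the nucleus. SIK2 signal at 2 h was 1441, 922.7, 1764 and 817.5 with indacaterol, against 479.4, 471.8, 534.6 and 512.4 with vehicle. At the earlier time it was 572.2, 514.7, 546.1 and 444.3 with indacaterol, against 587.3, 520.3, 589.2 and 478.0 with vehicle. Drug and vehicle overlapped at 1 h and were separate at 2 h. The growth was 1.28 ± 0.27 log2 (SE, adjusted p = 0.0628), and a dimmer SIK2 probe set gave 1.22 log2 and was called when all probe sets were tested (adjusted p = 0.0282). The remaining SIK2 probe sets, dimmer still, gave 0.32 and 0.04 log2 and were not called.

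ZNF462, a zinc finger protein of chromatin, came next. Its signal at 2 h was 1205, 938.1, 1259 and 854.3 with indacaterol, against 499.5, 456.7, 596.1 and 424.0 with vehicle. At 1 h the 8 arrays of both groups lay between 412.7 and 642.7. The growth was 1.23 ± 0.26 log2 (SE, adjusted p = 0.0628), close in size to that of SIK2. TBX3 encodes a T-box repressor and differed from these genes in having part of its effect at 1 h. Its signal at 2 h was 556.7, 446.7, 483.2 and 380.0 with indacaterol, against 155.9, 176.8, 189.3 and 137.1 with vehicle. The 1 h signals were 382.7, 302.6, 284.8 and 230.1 with indacaterol, against 191.7, 236.3, 192.5 and 187.3 with vehicle. The lowest indacaterol array at 1 h lay just below the highest vehicle array, so these groups overlapped by that pair alone. The growth of TBX3 was 0.89 ± 0.20 log2 (SE, adjusted p = 0.0846), and its next brightest probe set gave 1.22 log2 and was called among all probe sets (adjusted p = 0.000747). The remaining TBX3 probe sets lay between -0.21 and 0.16 log2 and were not called. Without replicate 3 of every group the growth was 1.10 log2 for SIK2, 1.17 for ZNF462 and 0.939 for TBX3.

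The other genes of this set were CASP9, the initiator caspase of the mitochondrial death pathway (growth 1.19 log2), BCAR3, an adaptor of integrin signalling (0.90), RIMKLB, a ligase that joins glutamate to aspartate compounds (0.78), HIVEP2, a zinc finger DNA-binding protein (0.68), FRAT1, a positive regulator of Wnt signalling (0.67), PROX2, a homeobox gene (0.63), and SMAD2, a signal transducer of transforming growth factor beta (0.52). Their adjusted p-values ran from 0.0734 for HIVEP2 to 0.176 for CASP9. Each was called higher with indacaterol at 2 h, and none of them was called at 1 h. CASP9 had a 1 h effect of 0.33 log2 all the same, with no overlap of drug and vehicle. Its 1 h signal was 960.4, 684.9, 718.4 and 649.9 with indacaterol, against 609.2, 625.3, 506.2 and 633.0 with vehicle. PROX2 was dim, with a mean log2 level of 4.86. In all of these 12 genes except PROX2 and FRAT1, the indacaterol arrays moved more between 1 and 2 h than the vehicle arrays did. FRAT1 moved by 0.15 log2 between 1 and 2 h with indacaterol and by -0.53 log2 with vehicle.

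**Figure D2:**
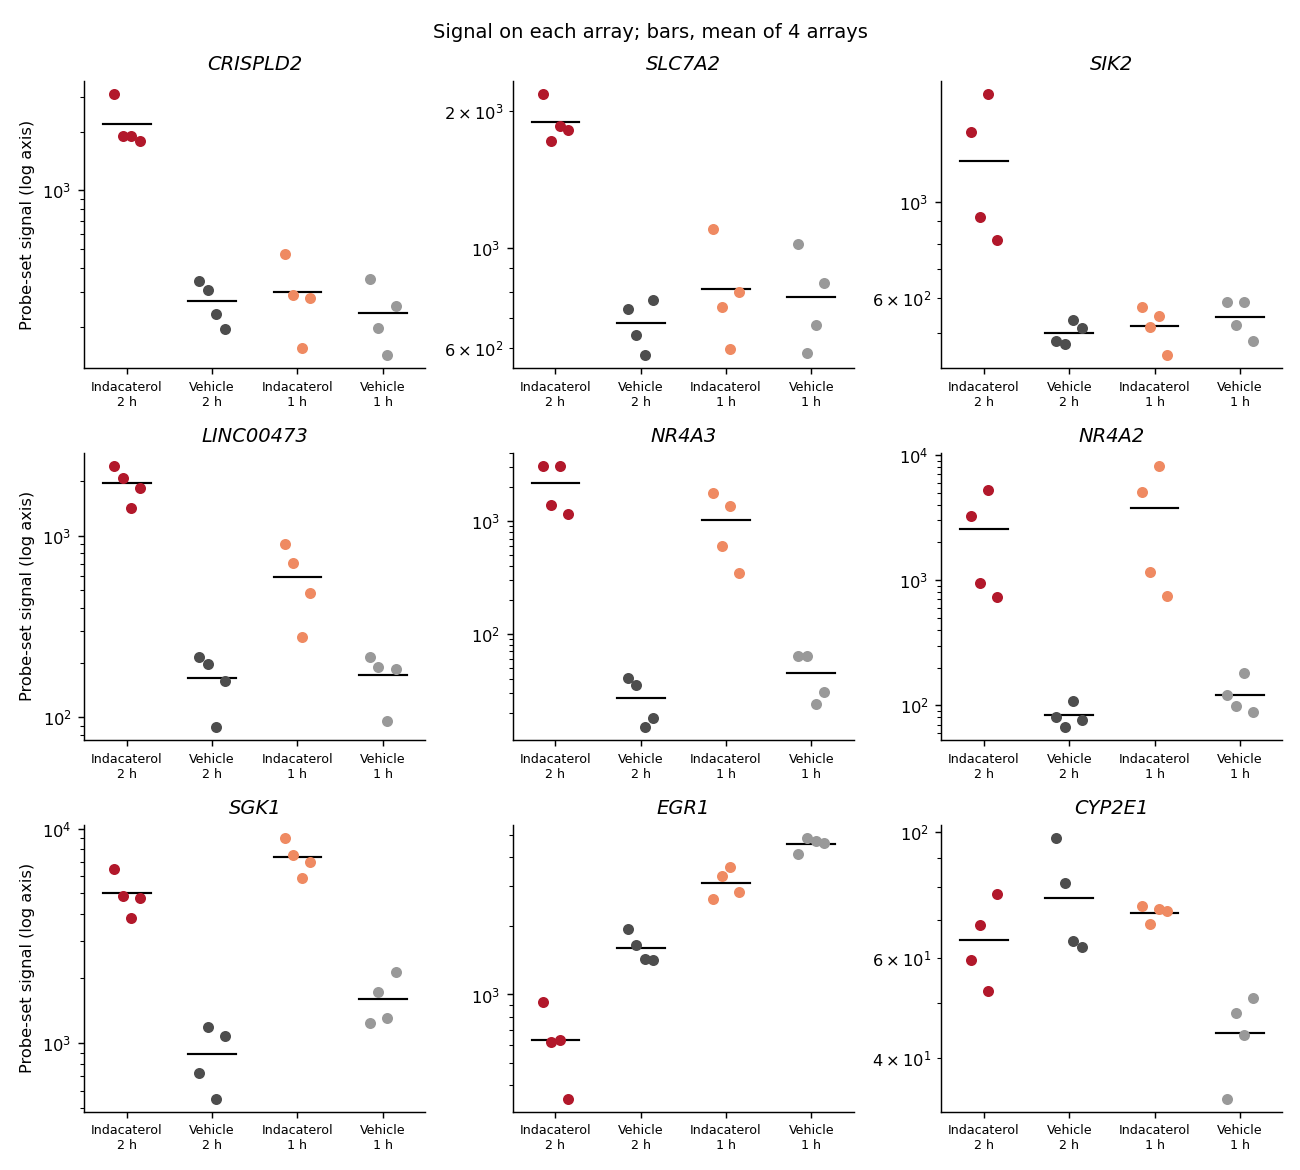
Probe-set signal on each of the 16 arrays for 9 genes, on a log axis, with the groups from left to right as indacaterol 2 h, vehicle 2 h, indacaterol 1 h and vehicle 1 h. Points are arrays and bars are means of 4. CRISPLD2, SLC7A2 and SIK2 are high in the indacaterol 2 h group alone. NR4A3, NR4A2 and SGK1 are high with indacaterol at both times, and LINC00473 lies at an intermediate level at 1 h.

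LINC00473, a long non-coding RNA known as a CREB target, was high at both times and higher at the later one. At 2 h its signal was 2417, 2084, 1410 and 1837 with indacaterol, against 214.1, 195.3, 88.6 and 158.9 with vehicle. At 1 h it was 904.0, 706.2, 275.8 and 482.9 with indacaterol, against 213.9, 189.0, 95.5 and 183.6 with vehicle. Indacaterol exceeded vehicle at each time without overlap, and the 2 h indacaterol arrays exceeded the 1 h ones. The growth was 1.84 ± 0.46 log2 (SE, adjusted p = 0.28), beside effects of 3.47 log2 at 2 h and 1.63 log2 at 1 h. The estimate was larger than that of SLC7A2, and so was its error. Without replicate 3 of every group the growth of LINC00473 was 1.66 log2. PDE4D, a phosphodiesterase 4 that lowers cAMP and is itself raised by cAMP, had 2486, 1542, 3483 and 1240 at 2 h with indacaterol, against 460.0, 300.4, 540.7 and 291.3 with vehicle. In the 1 h arrays it had 1262, 543.6, 1164 and 420.6 with indacaterol, against 468.3, 256.5, 504.1 and 300.4 with vehicle. Its groups overlapped at 1 h and were separate at 2 h, and replicates 1 and 3 had the higher signal in every group. The growth was 1.32 ± 0.62 log2 (SE, adjusted p = 0.971), with an error that takes in this spread between replicate numbers. Taken within each number in turn, the growth of PDE4D was 0.994, 1.26, 1.47 and 1.57 log2, though no label ties the numbers across groups. Values of LINC00473 and PDE4D with a replicate block are given with the dependence on processing.

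The promoters of 4 named genes are shown: CRISPLD2 and SIK2, not called at 1 h, and LINC00473 and NR4A3, called at 1 h. The core sites do not divide these pairs, since SIK2 and LINC00473 each hold 2. Each is the RefSeq sequence (GRCh38.p14) of 250 bases before and 50 bases after the start of the gene, 5′ to 3′ on the strand of the gene. Capitals mark the core site of the cAMP response element, TGACG, read on either strand (CGTCA on the other).
CRISPLD2, chr16:84819735-84820034, plus strand, no core site in this window: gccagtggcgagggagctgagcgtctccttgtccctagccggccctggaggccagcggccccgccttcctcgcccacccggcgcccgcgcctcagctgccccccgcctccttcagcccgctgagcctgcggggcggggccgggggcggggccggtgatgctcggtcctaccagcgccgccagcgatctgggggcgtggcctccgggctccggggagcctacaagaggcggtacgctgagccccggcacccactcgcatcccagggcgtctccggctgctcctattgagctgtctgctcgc
SIK2, chr11:111602199-111602498, plus strand, 2 core sites: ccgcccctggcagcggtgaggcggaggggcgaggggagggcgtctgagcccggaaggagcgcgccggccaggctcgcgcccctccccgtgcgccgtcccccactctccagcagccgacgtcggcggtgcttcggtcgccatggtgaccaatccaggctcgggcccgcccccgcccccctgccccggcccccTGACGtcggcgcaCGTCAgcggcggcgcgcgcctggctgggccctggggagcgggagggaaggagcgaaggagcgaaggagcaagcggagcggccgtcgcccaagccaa
LINC00473, chr6:165987990-165988289, minus strand, 2 core sites: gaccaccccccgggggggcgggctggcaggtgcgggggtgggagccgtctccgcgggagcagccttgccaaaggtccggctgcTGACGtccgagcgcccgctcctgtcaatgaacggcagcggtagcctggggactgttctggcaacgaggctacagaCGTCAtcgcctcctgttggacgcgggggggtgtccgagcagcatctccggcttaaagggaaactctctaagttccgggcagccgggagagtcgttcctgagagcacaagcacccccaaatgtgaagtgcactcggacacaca
NR4A3, chr9:99821635-99821934, plus strand, 4 core sites: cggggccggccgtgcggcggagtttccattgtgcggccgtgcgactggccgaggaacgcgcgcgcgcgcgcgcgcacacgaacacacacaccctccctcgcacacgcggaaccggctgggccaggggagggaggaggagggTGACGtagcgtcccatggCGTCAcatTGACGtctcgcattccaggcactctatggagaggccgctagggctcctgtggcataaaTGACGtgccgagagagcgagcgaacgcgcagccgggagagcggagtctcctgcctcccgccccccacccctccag

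Of 28 genes that rose or had a positive growth under the naming rule, 23 had a promoter in the table. The core site TGACG occurred in 10 of the 23, against 24.6% of 35116 promoters of the same length. It occurred in 6 of the 10 promoters available for the 12 greatest rises at 1 h and in 3 of the 9 available for CRISPLD2, SLC7A2 and the 10 genes that followed them by p. The full element TGACGTCA, which holds the core site on both strands, was found in 1 of the 23, that of FRAT1, against 1.85% of all promoters. A match is a description of the letters and not evidence of a bound site. The absence of a match in CRISPLD2 says only that these letters are not in this window.

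The first phase was made of genes whose effect was already present at 1 h and whose growth was small or negative beside it. By the rule that a gene be called at 1 h and have a growth smaller than 0.5 times its 1 h effect or opposite to it, 33 of the 37 genes higher at 1 h belonged here. The NR4A orphan nuclear receptors, immediate early transcription factors that need no ligand, led the list. NR4A2 signal at 2 h was 3258, 955.2, 5290 and 730.1 with indacaterol, against 80.2, 67.1, 108.2 and 76.1 with vehicle. At the earlier time it was 5098, 1168, 8179 and 741.6 with indacaterol, against 119.7, 98.6, 180.6 and 87.7 with vehicle. Indacaterol exceeded vehicle on every array at each time, and with indacaterol replicates 1 and 3 had far more signal than replicates 2 and 4. The effect was 4.27 log2 at 2 h and 4.21 log2 at 1 h, and the growth of 0.05 ± 1.06 log2 (SE) had a 95% interval of -2.07 to 2.17. An interval this wide holds a growth as large as that of LINC00473, but its error takes in the spread between replicate numbers. Taken within each number in turn, the growth of NR4A2 was -0.148, 0.177, 0.0351 and 0.148 log2. That of LINC00473 ran from 1.402 to 2.382 log2 when taken in the same way. No label ties the numbers across groups.

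NR4A3 had 3091, 1394, 3054 and 1145 at 2 h with indacaterol, against 40.4, 34.9, 14.95 and 18.0 with vehicle. Its signal at 1 h was 1766, 606.4, 1372 and 345.1 with indacaterol, against 63.5, 63.6, 23.9 and 30.2 with vehicle. No array of drug and vehicle overlapped at either time, while the indacaterol arrays of 2 h and 1 h did. Its growth was 1.69 ± 0.82 log2 (SE, adjusted p = 0.988), of the same sign as that of LINC00473 and with a larger error. Taken within each number in turn, the growth of NR4A3 was 1.298, 1.826, 1.511 and 2.127 log2, though no label ties the numbers. Its dimmer probe sets gave 1.17 and 0.07 log2. NR4A3 is placed here by the rule alone, because its growth is under 0.5 times its 1 h effect of 3.885 log2. NR4A1 had 792.6, 560.8, 808.3 and 488.3 at 2 h with indacaterol, against 178.5, 173.3, 91.1 and 113.1 with vehicle. The 1 h signals were 1118, 843.7, 1273 and 544.0 with indacaterol, against 321.0, 264.2, 266.0 and 252.4 with vehicle. Here the vehicle arrays were lower at 2 h than at 1 h without overlap, and the indacaterol arrays overlapped between the times. The growth of NR4A1 was 0.49 ± 0.37 log2 (SE).

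IL6, an inflammatory cytokine with a CREB-responsive promoter, had 1257, 629.7, 1855 and 386.4 at 2 h with indacaterol, against 114.4, 145.8, 106.4 and 95.9 with vehicle. At 1 h it had 1913, 1396, 3214 and 980.5 with indacaterol, against 143.8, 159.2, 229.7 and 112.0 with vehicle. Drug and vehicle did not overlap at either time. Its effect was 2.77 log2 at 2 h and 3.32 log2 at 1 h, and the growth was -0.55 ± 0.66 log2 (SE). PRDM1, a transcriptional repressor of cell differentiation, had 629.3, 432.5, 252.0 and 423.1 at 2 h with indacaterol, against 90.0, 77.2, 58.3 and 79.2 with vehicle. In the 1 h arrays it had 1061, 738.9, 483.6 and 732.7 with indacaterol, against 112.5, 111.9, 86.6 and 133.9 with vehicle. Both sets of arrays were lower at 2 h on average, and the growth was -0.33 ± 0.40 log2 (SE).

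SGK1, a kinase that promotes sodium transport, shows how the vehicle arrays enter the growth. Its signal at 2 h was 6502, 4857, 3810 and 4764 with indacaterol, against 728.5, 1192, 550.2 and 1077 with vehicle. At the earlier time it was 9069, 7498, 5873 and 6994 with indacaterol, against 1243, 1726, 1305 and 2144 with vehicle. The level with the drug averaged 4983 ± 1117 at 2 h and 7359 ± 1328 at 1 h (SD, n = 4 each), and that with vehicle 886.9 ± 298.7 and 1604 ± 419. Both averages were lower at 2 h, and the effect was 2.51 log2 at 2 h and 2.204 log2 at 1 h (growth 0.30 ± 0.32 log2, SE). TRIB1, a pseudokinase that directs proteins to degradation, had a lower estimate at 2 h. It had 1389, 1502, 1066 and 1327 at 2 h with indacaterol, against 349.6, 529.4, 341.2 and 426.4 with vehicle. The 1 h signals were 2265, 1731, 1924 and 1516 with indacaterol, against 368.1, 426.8, 403.5 and 432.5 with vehicle. All indacaterol arrays of 2 h lay below those of 1 h while vehicle overlapped, and the growth was -0.48 ± 0.26 log2 (SE), which did not pass. EDN1, the precursor of the vasoconstrictor endothelin, had 3158, 3002, 2668 and 2866 at 2 h with indacaterol, against 1046, 1098, 643.2 and 1027 with vehicle. At 1 h it had 4399, 4776, 5159 and 4251 with indacaterol, against 1254, 1360, 1162 and 1661 with vehicle. Drug and vehicle were both lower at 2 h without overlap, and the growth was -0.14 ± 0.26 log2 (SE).

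Over the 12 greatest rises at 1 h the growth ranged from -0.55 log2 for IL6 to 1.69 log2 for NR4A3, none was called, and all 12 were called higher at 2 h as well. The remaining members were SIK1 (growth 0.24), CXCL2 (-0.40), RGS2 (0.08), CCL20 (0.10) and ZNF331 (0.29). SIK1 is a kinase induced by CREB, RGS2 an inhibitor of Gq signalling, and CXCL2 and CCL20 are chemokines of neutrophils and of lymphocytes and dendritic cells. The median growth of the 37 genes higher at 1 h was -0.033 log2, with 17 of them above 0, beside 0.025 log2 and 55.5% above 0 over all genes. Their selection at 1 h favours a lower growth. With GSK present, where it had no part, their median was 0.16 log2 and 70.3% were above 0. Over all genes these were 0.07 log2 and 70.6%, but the 37 genes were bright, with a median level of 10.2 log2. Among genes with a mean log2 level of 8 or more, 85% were above 0. Over the 4 times, untested as a trend, NR4A2 had effects of 4.21, 4.27, 1.35 and 0.20 log2 at 1, 2, 6 and 18 h, IL6 3.32, 2.77, 0.48 and 0.04, and TRIB1 2.13, 1.66, 0.31 and -0.09. CRISPLD2 had 0.30, 2.94, 2.89 and 0.61 log2 and SLC7A2 0.05, 1.46, 1.70 and 0.11, so that both had a 6 h effect close to that of 2 h. The 10 genes that followed them by p had effects of several sizes at 6 h. SIK2 had 0.53 log2 at 6 h, ZNF462 0.47 and BCAR3 0.10, beside 1.21, 1.08 and 0.95 log2 at 2 h. CASP9 had 0.79 beside 1.51 log2 at 2 h, and SMAD2 had 0.44 beside 0.51. PDE4D had 1.47 log2 at 6 h beside 2.34 at 2 h.

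**Figure D3:**
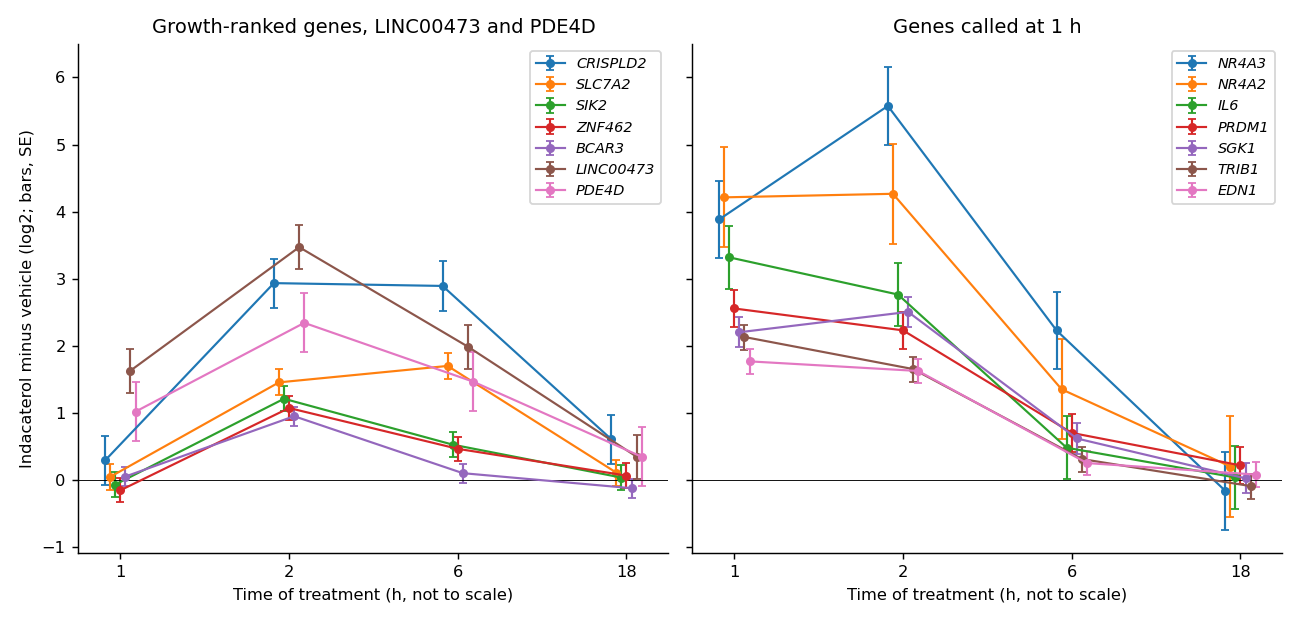
Indacaterol minus vehicle (log2, error bars SE) at 1, 2, 6 and 18 h for growth-ranked genes with LINC00473 and PDE4D (left) and for genes called at 1 h (right), with times evenly spaced. On the left CRISPLD2 and SLC7A2 stay at their 2 h level at 6 h while SIK2, ZNF462 and BCAR3 have lower effects then. On the right the effects are already present at 1 h and are lower at 6 h.

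The arrays of cells that also received GSK gave the same difference of differences in separate samples. With GSK present, CRISPLD2 had 2914, 1928, 2000 and 1638 with both drugs at 2 h, against 636.4, 292.8, 377.4 and 298.0 with GSK alone. In the 1 h arrays it had 461.6, 249.9, 156.9 and 273.9 with both drugs, against 368.6, 247.9, 193.7 and 289.0 with GSK alone. Again the 2 h arrays with indacaterol stood above all others. The growth was 2.40 ± 0.52 log2 (SE) for CRISPLD2, 1.24 ± 0.27 for SLC7A2, 0.99 ± 0.27 for SIK2 and 1.03 ± 0.26 for ZNF462, none of which passed alone. In these arrays 458 genes had an unadjusted p under 0.05, fewer than the share of 0.05 that would pass where no gene changed. TBX3 was the single gene called there, 0.00506% of those tested (growth 1.10 ± 0.20 log2, SE, adjusted p = 0.0207). Without GSK 2 h replicate 2 its growth was 1.00 log2 and the limma adjusted p 0.172, without replicate 3 of every group 1.16 log2 and 0.0203, and without both 1.02 log2 and 0.149. The call was also lost without replicate 1, 2 or 4 of every group, without replicate 1 or 3 of both drugs at 2 h, replicate 2 or 4 of both drugs at 1 h, or replicate 1 or 3 of GSK at 1 h. Its signal with both drugs was 515.3, 395.7, 463.2 and 423.5 at 2 h and 287.9, 234.4, 351.9 and 270.0 at 1 h. With GSK alone it was 158.0, 105.8, 138.0 and 136.0 at 2 h and 197.3, 179.6, 209.8 and 176.9 at 1 h. Indacaterol separated the groups at each time here, including 1 h. No gene's growth differed between the sets of arrays by limma's test of the difference after adjustment. At an unadjusted p under 0.05 there were 372 genes, again fewer than a share of 0.05. For CRISPLD2 the difference between the growths was 0.24 log2, with a 95% interval of -1.23 to 1.71.

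The 163 genes called higher at 2 h and not called at 1 h had a median growth of 0.51 log2, which their selection favours. With GSK present, where the selection had no part, their median growth was 0.46 log2 and 162 of the 163 (99.4%) were above 0. Over all genes the median there was 0.07 log2 and 70.6% were above 0, and among genes with a mean log2 level of 8 or more 85% were. After quantile normalization, 160 (98.2%) of the 163 were above 0, beside 49.1% of all genes. Without replicate 3 and GSK 2 h replicate 2, 156 (95.7%) were, beside 60.1% of all genes. Between 1 and 2 h these genes had a median change of 0.38 log2 with indacaterol and of -0.11 log2 with vehicle. Their median effect was 0.68 log2 at 2 h, 0.15 log2 at 1 h, 0.25 log2 at 6 h and 0.02 log2 at 18 h. Of the 163, CRISPLD2 and SLC7A2 passed the test of growth.

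**Figure D4:**
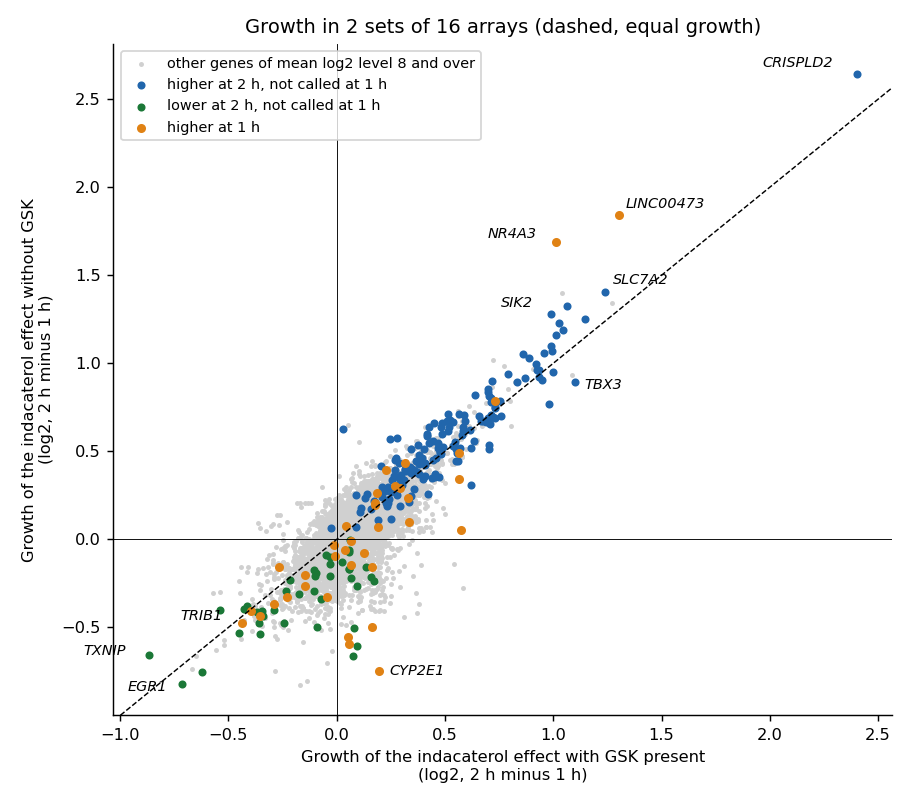
Growth of the indacaterol effect without GSK (vertical axis) against growth with GSK present (horizontal axis), both log2, from 16 arrays each that share none, for genes of mean log2 level 8 and over and for called genes. Genes called higher at 2 h and not at 1 h (blue) lie in the upper right quadrant for 162 of 163, with CRISPLD2 farthest out. EGR1 and TXNIP lie in the lower left quadrant, and CYP2E1 lies below 0 on the vertical axis alone.

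Of the 42 genes lower at 2 h (0.212% of those tested), 41 were not called at 1 h. With GSK present the growth of these 41 had a median of -0.09 log2, with 14 (34.1%) above 0, beside 70.6% of all genes. EGR1, an immediate early zinc finger factor driven by the ERK pathway, had the largest fall at 2 h. Its signal at 2 h was 922.7, 619.9, 628.6 and 349.0 with indacaterol, against 1932, 1642, 1436 and 1418 with vehicle. At the earlier time it was 2612, 3327, 3609 and 2823 with indacaterol, against 4130, 4876, 4728 and 4635 with vehicle. Indacaterol was below vehicle on every array at both times, while vehicle at 2 h was itself far below vehicle at 1 h. The effect was -1.40 log2 at 2 h (called) and -0.58 log2 at 1 h (adjusted p = 0.274), with a growth of -0.82 ± 0.27 log2 (SE, adjusted p = 0.632). With GSK present the growth was -0.71 log2. Without GSK the other EGR1 probe sets had growths of -0.88 and, on the dimmest, 0.11 log2.

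TXNIP, an inhibitor of thioredoxin and of glucose uptake, had 1466, 1647, 995.0 and 1631 at 2 h with indacaterol, against 3363, 3566, 2757 and 3419 with vehicle. The 1 h signals were 3523, 4371, 2726 and 5716 with indacaterol, against 5435, 5908, 4364 and 7777 with vehicle. Drug and vehicle were separate at 2 h and overlapped at 1 h. Its growth was -0.66 ± 0.30 log2 (SE), and -0.87 log2 with GSK present. KLF7, a Krüppel-like transcription factor, had 329.9, 490.9, 320.4 and 376.7 at 2 h with indacaterol, against 600.3, 601.6, 643.0 and 726.7 with vehicle. At 1 h it had 715.8, 766.0, 846.6 and 708.2 with indacaterol, against 674.7, 778.2, 860.9 and 721.3 with vehicle. Its effect was 0.00 log2 at 1 h and -0.75 log2 at 2 h, while the growth of -0.75 ± 0.23 log2 (SE) did not pass (adjusted p = 0.541). The dimmer KLF7 probe sets had smaller 2 h effects of -0.481, -0.428, -0.0478 and -0.0662 log2. Their growths were -0.483, -0.375, -0.0386 and -0.281 log2 in that order. CCNF, a cyclin of the ubiquitin ligase machinery, and BORA, an activator of Aurora kinase A, had growths of -0.54 and -0.53 log2, and -0.36 and -0.45 log2 with GSK present. EGR3 and TRIM59 had -0.60 and -0.48 log2, and 0.09 and -0.24 log2 with GSK present.

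CYP2E1, a cytochrome P450 of ethanol metabolism, was the single gene whose effect was called smaller at 2 h. Its signal was dim: 59.4, 68.6, 52.5 and 77.5 at 2 h with indacaterol, against 97.6, 81.1, 64.1 and 62.6 with vehicle. In the 1 h arrays it was 73.9, 68.7, 73.0 and 72.4 with indacaterol, against 33.9, 47.9, 44.0 and 51.1 with vehicle. The group that stood apart was vehicle at 1 h, below all others, and the indacaterol arrays overlapped between the times. The growth was -0.75 ± 0.14 log2 (SE, adjusted p = 0.0316), the vehicle arrays moved by 0.61 log2 and the indacaterol arrays by -0.14 log2. With GSK present the growth was 0.19 log2, and none of the other 3 CYP2E1 probe sets had a called growth (-0.18, -0.36 and 0.00 log2). Leaving out replicate 3 in every group gave an adjusted p of 0.105 and leaving out replicate 1 gave 1, with growths of -0.73 and -0.52 log2. The call was kept in 9 of the 20 refits.

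None of the next 11 genes of negative growth passed. They included ESRRG, an orphan nuclear receptor (-0.60 log2), GJD2, a gap junction protein (-1.01), RCSD1, an actin-capping regulator (-0.99), ESR1, the estrogen receptor alpha (-0.55), and CALCRL, the calcitonin receptor-like receptor (-1.10). In all 11 the vehicle mean was higher at 2 h, by 0.31 to 1.09 log2, although vehicle arrays of the 2 times overlapped in GJD2, RCSD1, LOC439933, LINC01018 and LAX1, and the growth with GSK present lay between -0.19 and 0.32 log2. Genes with an unadjusted p under 0.05 were, as a count, close to the share of 0.05 that would pass where no gene changed. Among them 610 had a negative growth and a median level of 6.51 log2. In 507 of these the vehicle arrays moved more than the indacaterol arrays. In 359 of the 610 (58.9%) the growth with GSK present was negative too, beside 29.4% of all genes, but the share of all genes depends on the level. Under a level of 6 log2, 94 of 202 were negative there too, and 34 of 63 genes of positive growth were positive there too, where 50.6% of genes at that level were above 0. At levels of 6 to 8 these counts were 193 of 316 and 35 of 39, where 57.6% were above 0. The 373 with a positive growth were brighter, with a median level of 9.24 log2, and 340 of them (91.2%) had a positive growth with GSK present, beside 70.6% of all genes. At levels of 8 and over, 271 of 271 positive growths and 72 of 92 negative ones had the same sign, where 85% of genes were above 0. Without replicate 3 and GSK 2 h replicate 2, 259 of the 271 were above 0, and 51 of the 92 genes of negative growth were above 0.

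The 5 genes called lower at 1 h (0.0253% of those tested) all had a growth above 0, beside 55.5% of all genes. Their selection favours this, because the 1 h effect is subtracted in the growth. With GSK present, where the selection had no part, all 5 were above 0. Of all genes 70.6% were, and 85% at levels of 8 and over. MIR181A2HG, the host transcript of a microRNA pair, had an effect of -0.81 log2 at 1 h and -0.31 at 2 h, ZNF57 -0.47 and -0.04, ZNHIT2 -0.42 and 0.09, SERTAD3 -0.39 and -0.35, and C1orf74 -0.36 and -0.23. SERTAD3 alone was also called lower at 2 h. No growth among them passed.

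Gene lists chosen with earlier results in view are described by counts. Of 21 CREB and cAMP-inducible genes measured, 13 were called higher and 1 (EGR1) lower at 2 h, and 7 were called higher at 1 h, beside 0.986% higher at 2 h and 0.187% higher at 1 h over all genes. The growth was above 0 in 18 of the 21, beside 55.5% of all genes, with a median of 0.30 log2, and 1 member (CRISPLD2) was called. The median ran from 0.204 log2 without indacaterol 1 h replicate 4 to 0.596 log2 without indacaterol 2 h replicate 4. Members beside those above were BDNF, a neurotrophin (growth 1.00 log2, called at 2 h alone), FOSB, an AP-1 subunit (0.69, called at 2 h alone), and CREM, a CREB relative whose inducible form represses cAMP signalling (0.50, called at 2 h alone). DUSP1, a phosphatase of MAP kinases, was called at both times and had -0.10 log2. Of the 34 genes of cAMP feedback and signalling, 6 were called higher at 2 h and 2 at 1 h. A growth above 0 was found in 28, beside 55.5% of all genes. The list median was 0.17 log2. It ran from 0.0914 log2 without indacaterol 1 h replicate 4 to 0.273 log2 without indacaterol 1 h replicate 1. PKIB, a protein kinase A inhibitor, had a growth of 0.63 log2 and AKAP12, a protein kinase A anchor, 0.50 log2, and neither was called at 1 or 2 h.

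Of the 20 membrane transport genes, 19 had a growth above 0, beside 55.5% of all genes. The list median was 0.23 log2. It ran from 0.128 log2 without vehicle 1 h replicate 3 to 0.379 log2 without vehicle 2 h replicate 3. SLC7A2, SLC2A3, a glucose transporter (growth 0.79 log2), and STEAP4, a metalloreductase (1.03), were called higher at 2 h, and none was called at 1 h. CFTR, the chloride channel, was dim and had a growth of 1.19 log2 without GSK and of -0.29 log2 with it. Of 20 glucocorticoid-inducible genes 6 were called higher at 2 h and 4 at 1 h. Over all genes 0.986% were called higher at 2 h and 0.187% at 1 h. The median growth of the list was 0.13 log2, but it was -0.04 log2 when indacaterol 2 h replicate 3 was left out. IRS2, an insulin receptor adaptor, had 0.43 log2. Among 27 cytokines and chemokines the growth was above 0 in 12, beside 55.5% of all genes, with a median of -0.03 log2. IL15, a lymphocyte growth factor, had 0.92 log2 and was called at 2 h alone. Among 23 immediate early transcription factors 11 were above 0, beside the same 55.5%, with a median of -0.03 log2. KLF6 (-0.26) and MYC (-0.03) were called at both times. In the growth and vascular factors VEGFC, a lymphatic growth factor, had 0.66 log2 and a call at 2 h alone, beside a list median of 0.12 log2.

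**Figure D5:**
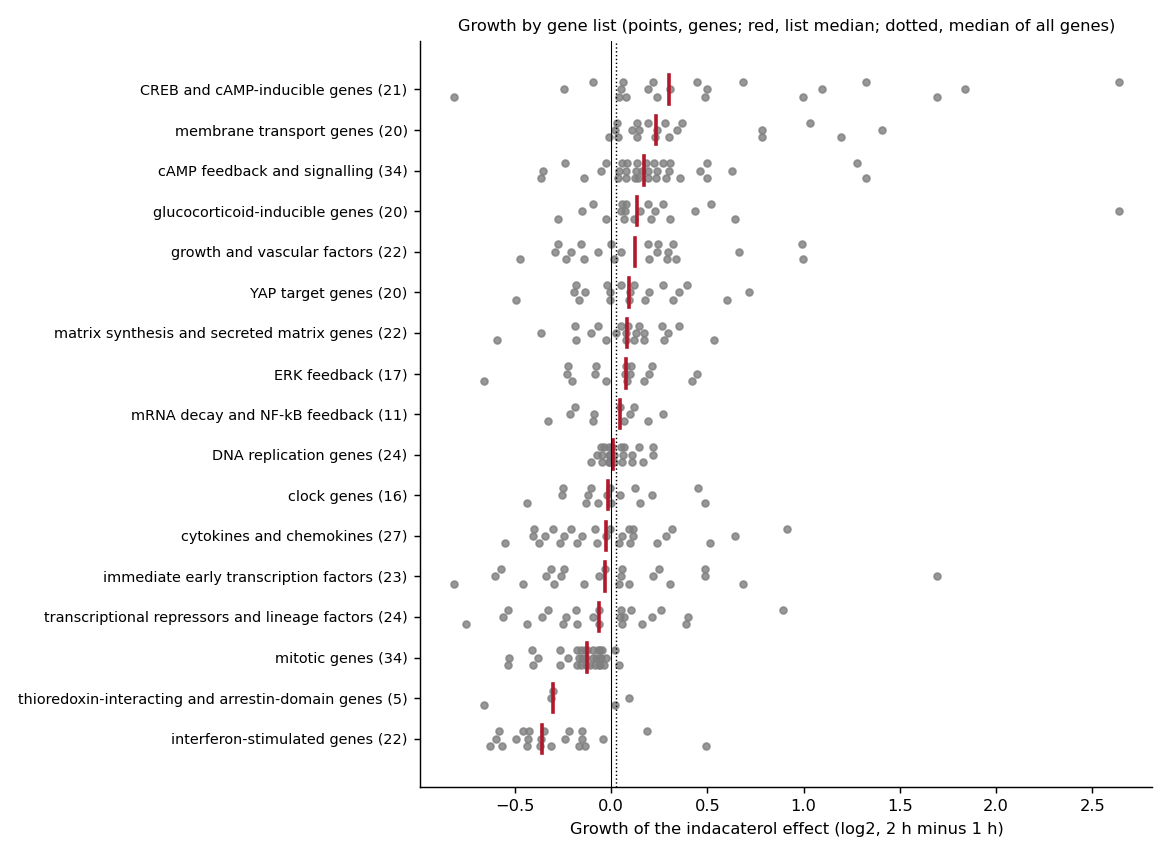
Growth of the indacaterol effect (log2, horizontal axis) for the members of 17 gene lists, with the number measured in brackets. Points are genes, red bars list medians, and the dotted line is the median of all genes. The CREB, transport and cAMP feedback lists have the highest medians, and the interferon-stimulated list has the lowest.

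On the negative side, 2 of 34 mitotic genes had a growth above 0, with a median of -0.13 log2, where 44.5% of all genes were below 0. CCNF, BORA and CDCA8, a subunit of the chromosomal passenger complex (growth -0.41), were called lower at 2 h, and no member was called at 1 h. The median ran from -0.236 log2 without indacaterol 1 h replicate 4 to -0.0626 log2 without vehicle 1 h replicate 4, and the count above 0 reached 9 without indacaterol 2 h replicate 4. With GSK present 4 of the 34 were above 0, beside 70.6% of all genes, with a list median of -0.08 log2. The 24 DNA replication genes had a median growth of 0.01 log2 and no call. Interferon-stimulated genes had the lowest list median, -0.36 log2, with 2 of 22 above 0 and none called for growth or at 1 or 2 h. Their median effect was 0.03 log2 at 2 h and 0.31 log2 at 1 h, and IFIT3 (-0.63) and IFIT1 (-0.60) were lowest. Without replicate 1 of every group the list median was -0.03 log2 and 11 of the 22 were above 0. The remaining lists had medians between -0.30 log2 for TXNIP with arrestin-domain genes and 0.09 log2 for YAP targets, but without indacaterol 1 h replicate 3 these medians were 0.0543 and -0.000501 log2. CCN2, a matricellular protein and YAP target (0.71), was called at 2 h alone. No member of the marker lists of epithelial, squamous, mesenchymal, leukocyte, ciliated, secretory or endothelial cells was called for growth or at either time.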

How the data were processed

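RNA of 64 samples was hybridised to Affymetrix 3' expression arrays, and the 16 groups (4 treatments at 1, 2, 6 and 18 h, 4 replicates each) were taken from the sample labels. The deposited table holds the authors' linear signal intensity for 54675 probe sets, and the submitters' processing notes name PLIER and Transcriptome Analysis Console 4, whose settings are not given in the sources used here. A single gene symbol was available for 41091 probe sets, and the brightest probe set of each symbol was kept (19775 genes). The log2 of intensity + 16 was fitted with limma 3.58.1 in R 4.3.3, with 1 mean per group, no replicate block and Benjamini-Hochberg adjustment over all genes. Genes called had an adjusted p under 0.05. On simulated arrays drawn independently of each other, 100 genes were given a growth of 1 log2 and another 100 a growth of 2 log2. Of these 70% and 91% were called, with 8 false calls. The real arrays correlate by replicate number and gave far fewer calls, so these shares do not measure the power here. Named genes were, per direction, the 12 of greatest growth among called genes, filled by smallest unadjusted p, the 12 greatest rises and 5 falls at 1 h, the 12 rises and 8 falls at 2 h, genes called with a replicate block, and list members. Members and lists were chosen with earlier results of these data known. Alternatives changed the pseudocount, normalization, probe-set rule, block, arrays fitted and arrays left out. Promoters came from RefSeq.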

Additional observations from a re-analysis of the deposited data

Results flagged for a closer look

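Among 76 groups of 4 arrays examined for 19 genes, 3 held an array whose gap to its nearest neighbour exceeded Dixon's 95% limit, where chance gives about 1 in 20. CRISPLD2 had 3118 on indacaterol 2 h replicate 1, beside 1797 to 1910 on the other arrays of its group. TBX3 had 236.3 on vehicle 1 h replicate 2, beside 187.3 to 192.5. EDN1 had 643.2 on vehicle 2 h replicate 3, beside 1027 to 1098.

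The difference between the 2 h and the 1 h effect passed limma's test for CRISPLD2 (2.64 log2), SLC7A2 (1.41 log2) and CYP2E1 (-0.75 log2). With GSK present it passed for TBX3 (1.1 log2).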

How the results depend on the processing

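The main analysis called 3 genes for growth. The count was 1 with a pseudocount of 1, 6 with 64, 6 after quantile normalization, 5 after centring, 0 with the mean of probe sets and 0 with the 16 arrays alone. It was 0 to 10 over the refits that left out an array or a replicate number, 0 without replicate 2, 10 without indacaterol 1 h replicate 1 and 9 without indacaterol 2 h replicate 4. Without replicate 3 and GSK 2 h replicate 2, chosen after seeing the data, it was 15, with 0 of the 3 genes among them. Replicate numbers share no stated source. Of 24 same-number correlations of deviations, 21 were over 0.1 (lowest 0.0101, highest 0.889). In 19 of the 24 the array correlated best with its own number in the other group, a hint from the data and not the design. With the replicate block the growth count was 101 (96 higher, 5 lower), 70 without replicate 3 and 61 on 16 arrays, and all 96 higher and 1 of the 5 lower had the same sign with GSK present, where 70.6% of all genes and 85% at levels of 8 and over were above 0. With it the adjusted p ran from 1.43e-07 (ZNF462) to 0.0198 (FRAT1) for the 10 genes that followed CRISPLD2 and SLC7A2, and was 5.11e-05 for LINC00473 and 0.00956 for PDE4D. With GSK present the growth count of 1 was 0 with the mean of probe sets, 56 with the block, 57 with the block without replicate 3, 0 on 16 arrays, 10 with the block on 16 arrays, 0 without replicate 3 and GSK 2 h replicate 2, and 0 to 4 over single omissions. The 1 h count of 42 was 206, 114, 25 and 137 with the block, the block without replicate 3, 16 arrays and the block on 16 arrays, and 18 to 54 over single omissions. The 2 h count of 237 was 751, 586, 156 and 841 in that order, and 99 (without replicate 1) to 276. After quantile normalization it split into 204 higher and 132 lower, beside 195 and 42. The vehicle count between 2 and 1 h of 38 was 859, 445, 14 and 618 in the same order, 386 without replicate 3 and GSK 2 h replicate 2, and 4 (without replicate 1) to 312 (without replicate 4). The indacaterol count of 102 was 156 after quantile normalization and 434, 261, 43 and 469 in the same order, and 20 (without replicate 2) to 101. Over all settings the growth ran from 1.25 to 2.88 log2 for CRISPLD2, 0.657 to 1.56 for SLC7A2 and -0.947 to -0.323 for CYP2E1. No called value changed sign. The uncalled growths of NR4A2, RGS2, CCL20, SERTAD3 and RPH3AL-AS1 did. The cause of these changes was not tested.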
